A study of Drosophila melanogaster with 6 samples.

Results

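The neprilysin and neprilysin-like genes of *Drosophila melanogaster* were examined in adult males that overexpressed the long noncoding RNA *lncRNA-CR33942* and in control males, 12 h after infection with the Gram-negative bacterium *E. coli*. Members were taken by name, as every gene called *Nep* or *Nepl* followed by a number, and 26 of the 15656 genes in the deposited gene table met that rule. These were 7 neprilysins (*Nep1* to *Nep7*) and 19 neprilysin-like genes (*Nepl3* to *Nepl21*). The family was selected on its values in the same contrast that is described here, so its levels, fold changes and calls are a description, and no p is given for a member or for the family.

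Neprilysins are zinc metallopeptidases of the M13 family. Most are anchored in the plasma membrane with the catalytic site facing outward, where they cleave small signalling peptides and so end their action. In flies, *Nep1* to *Nep4* have been tied to memory formation, *Nep2* and *Nep4* cleave tachykinins and other regulatory peptides, and *Nepl15* has been tied to glycogen and lipid storage in adult males. For most neprilysin-like genes no function is stated here.

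The study asked how *lncRNA-CR33942* acts on the antibacterial response. RNA of male adult flies was poly(A)-selected and sequenced from 3 libraries per group. Control flies were Gal80ts; Tub-Gal4/P{CaryP}attP40 and overexpressing flies were Gal80ts; Tub>lncRNA-CR33942, so both groups carried the tubulin driver, which acts in nearly all cells, and the temperature-sensitive repressor Gal80ts. All flies were males aged 3 to 5 d and had been reared at 18 °C, at which Gal80ts holds the driver silent. They spent over 24 h at 29 °C, at which it does not, before *E. coli* was injected. No uninfected library was analysed here, so the contrast gives the effect of the overexpression genotype in infected flies only.

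Each library held between 16894595 and 19423287 reads assigned to genes. The transcript of *lncRNA-CR33942* itself, listed under the older name pncr016:2R, stood at 197 ± 17.1 normalized read counts in control flies and at 4636 ± 244 in overexpressing flies (mean ± SD, n = 3 libraries per group, as for all values that follow), and the libraries of the groups did not overlap. A normalized read count is the number of reads on a gene divided by a factor for the depth of the library. Genes were tested where their mean over the 6 libraries was at least 0.5 FPKM (fragments per kilobase of gene, scaled to the depth of the library), and a gene was called where limma gave an adjusted p under 0.05 over all 13196 genes tested.

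Transcripts of 23 of the 26 members passed that filter. Overexpression of *lncRNA-CR33942* went with lower levels of 5 of the 23, *Nepl9*, *Nepl21*, *Nepl18*, *Nepl11* and *Nepl13*, which stood at between 66.0% and 79.3% of their control level. No member was called higher by limma, edgeR or DESeq2, and 3 had an unadjusted p under 0.05 in that direction in limma. The other 18 were not called. With limma on log2 normalized counts, all 5 calls depended on the intensity trend, which estimates the spread of a gene from genes of like level. Without it 0 members were called, at the same fold changes, and 99 of all genes tested were called lower and 94 higher. The same 5 members were called by limma voom, edgeR and DESeq2. With the trend, 691 (5.24%) of all genes tested were called lower and 420 (3.18%) higher. These shares are background to the count of members, and since the family was selected on this contrast nothing is read from their difference. With each library scaled to its total, 503 genes were called lower and 632 higher, and the same 5 members were called lower.

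The members spanned a wide range of levels. Among the 23 tested members the control level of the highest was 206 times that of the lowest on the FPKM scale, which allows for gene length. Their median was 13.2 FPKM, beside 10.1 FPKM over all genes tested. All 26 genes together took between 0.094% and 0.107% of the reads of a library. In control flies *Nepl11* stood highest at 107 ± 2.57 FPKM, followed by *Nepl15* at 57.3 ± 2.75 and *Nepl21* at 36.3 ± 2.57, and these 3 genes made up 46.2% of the summed FPKM of the family. In control flies each of the 3 was separated from the next. In overexpressing flies *Nepl11* and *Nepl15* were, at 86.9 ± 8.28 and 53.1 ± 2.09 FPKM, while *Nepl21* (27.3 ± 0.749) and *Nep4* (25.9 ± 0.941) overlapped.

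Below them, the levels in control flies ran from *Nepl6* (25.9 ± 1.88 FPKM) and *Nep4* (23.5 ± 1.64) down to *Nepl13* (14.6 ± 0.815) and *Nepl17* (10.4 ± 0.809), with *Nep6*, *Nep7*, *Nepl18*, *Nepl14*, *Nep2* and *Nepl10* in between. Neighbours in this order often could not be ranked. In 12 of the 25 neighbouring pairs the ranges of the control libraries overlapped, among them *Nepl6* and *Nep4*, *Nep6* and *Nep7*, and the whole run of neighbours from *Nepl19* (7.67 ± 0.660) through *Nepl16*, *Nepl12*, *Nep3*, *Nepl9*, *Nep1* and *Nep5* to *Nepl5* (4.15 ± 0.234). *Nepl4* followed at 2.73 ± 0.363 FPKM.

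*Nepl3*, at 0.517 ± 0.142 FPKM in control flies, lay just inside the filter, and its exons overlap those of the histone gene *His3.3A* on the other strand. The sources used here do not state whether reads were counted by strand. Reads of the 2 genes could therefore not be told apart on the overlap, 168 of the 2267 bases of *Nepl3*. Just outside the filter lay *Nepl20*, at 0.426 ± 0.066 FPKM in control and 0.444 ± 0.132 in overexpressing flies. *Nepl7* (0.144 ± 0.0422 and 0.136 ± 0.048 FPKM) and *Nepl8* (0.0372 ± 0.0325 and 0.10 ± 0.0946 FPKM) were close to the limit of detection, and *Nepl8* had no read in control replicate 1 and overexpression replicate 2.

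**Figure D1:**
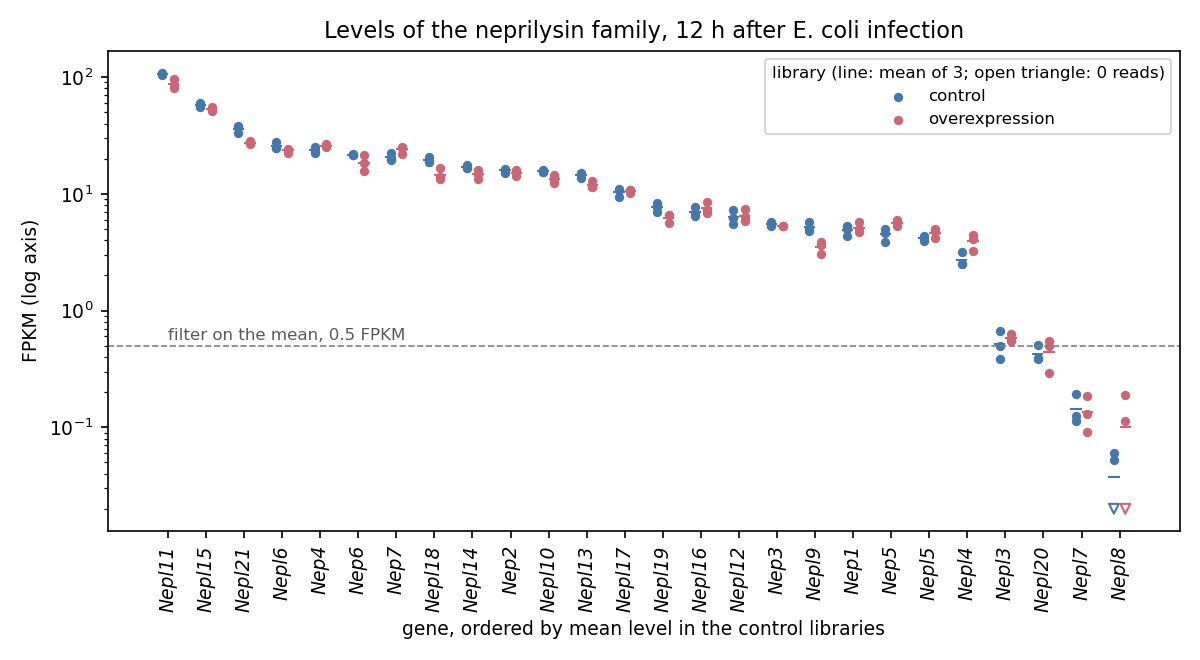
Level of each of the 26 family members in FPKM on a log axis, with the 3 control libraries in blue, the 3 overexpression libraries in red and a short line at each mean; open triangles are libraries without a read. *Nepl11*, *Nepl15* and *Nepl21* stand highest, and *Nepl20*, *Nepl7* and *Nepl8* lie under the filter at 0.5 FPKM.

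*Nepl11* fell from 4189, 4134 and 4396 normalized read counts in control replicates 1, 2 and 3 to 3725, 3229.7 and 3124 in overexpression replicates 1, 2 and 3. Every overexpression library lay below every control library, and the log2 fold change was −0.34 (standard error 0.064). As the gene with the highest level of the family, *Nepl11* also gave the largest drop in reads, from 4239.8 ± 138 to 3359 ± 321.

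*Nepl21*, the third in level, held 1399.8, 1601 and 1604 normalized read counts in the control libraries and 1159, 1112 and 1100.2 in the overexpression libraries. The means were 1535 ± 117 and 1124 ± 30.9, a log2 fold change of −0.45 (standard error 0.063). Control replicate 1 was the lowest of its group, and it still lay above all 3 overexpression libraries.

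*Nepl18* gave 736, 746 and 826 normalized read counts in control flies against 538, 519 and 643 in overexpressing flies. Its log2 fold change was −0.45 (standard error 0.086), from 769 ± 49.1 to 566 ± 66.6. Replicate 3 was the highest library in both groups, and the groups did not overlap.

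*Nepl13* gave 607, 627 and 569.8 normalized read counts in control flies and 514, 458 and 459 in overexpressing flies. The log2 fold change was −0.33 (standard error 0.075), with no overlap between the groups. This call rested in part on single libraries: without control replicate 1 and without overexpression replicate 3 *Nepl13* was no longer called, at log2 fold changes of −0.33 and −0.31.

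*Nepl9*, the member with the lowest level among those called (5.16 ± 0.464 FPKM in control flies), had the lowest fold change of the 23. It held 218, 192 and 188 normalized read counts in control libraries and 144, 115 and 136 in overexpression libraries, a log2 fold change of −0.60 (standard error 0.126). All control libraries lay above all overexpression libraries. Without control replicate 1, its highest control library, the log2 fold change was −0.53 and *Nepl9* was not called.

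Among the 5 called members, overexpression replicate 1 was never the lowest library, replicate 2 was the lowest for 3 of them and replicate 3 for 2. Calls of members depended on the libraries used: 3 members were called lower without control replicate 1, beside 2.49% of all genes tested, and 8 without overexpression replicate 1, beside 3.93%. *Nepl11*, *Nepl18* and *Nepl21* were called with each of the 6 libraries left out in turn. Their log2 fold changes then ran from −0.42 to −0.29, from −0.54 to −0.39 and from −0.51 to −0.41.

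**Figure D2:**
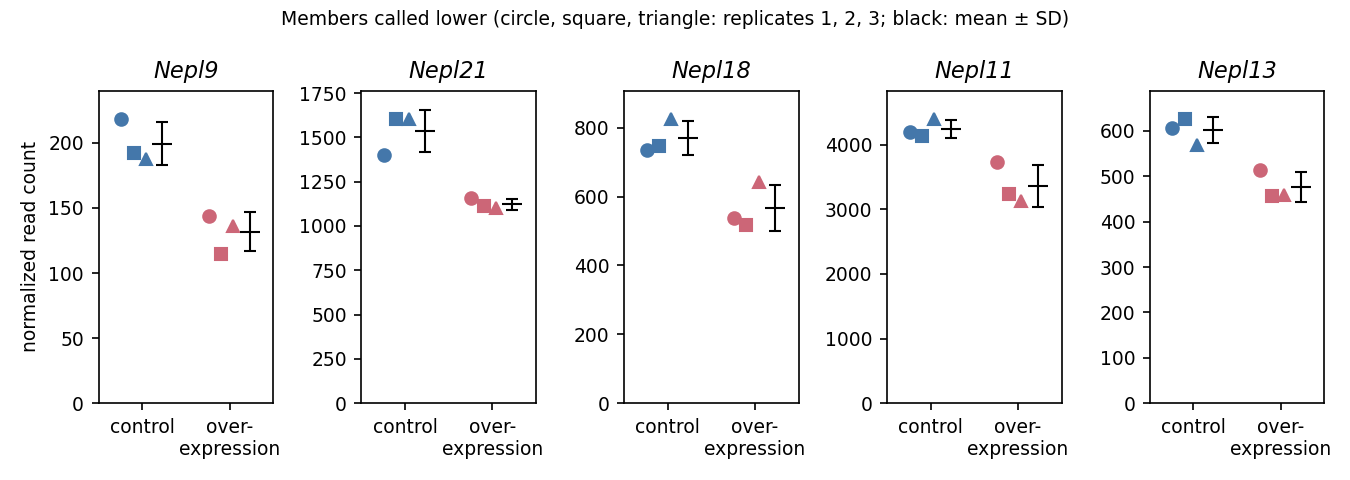
Normalized read counts of the 5 members called lower, 1 panel per gene with its own axis starting at 0; circles, squares and triangles are replicates 1, 2 and 3, and black marks give the mean ± SD of 3 libraries. In each panel the 3 overexpression libraries (red) lie below the 3 control libraries (blue).

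In 7 further members every overexpression library lay below every control library without a call. With the 5 above this made 12 of the 23 tested members, and 1 member, *Nep5*, lay above in every library. Over all genes tested the overexpression libraries lay wholly below the control libraries in 14.4% and wholly above in 12.9%. The 10 remaining members overlapped between the groups.

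*Nepl15*, which has been tied to energy storage in adult males, held 2219, 2251 and 2463 normalized read counts in control flies and 2174, 2012 and 2059 in overexpressing flies. The gap between the groups was small, 2219 against 2174 for the closest libraries, and the log2 fold change was −0.15 (standard error 0.056). *Nepl6* was similar in size, with 934, 933 and 1072 against 877, 899 and 826 and a log2 fold change of −0.17 (standard error 0.069).

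*Nepl14* held 689, 725 and 695 normalized read counts in control flies and 638, 536 and 599 in overexpressing flies, a log2 fold change of −0.25 (standard error 0.074). *Nepl10* held 605, 591 and 595 against 545, 495 and 461, a log2 fold change of −0.26 (standard error 0.075). In both genes overexpression replicate 1 was the overexpression library nearest to the control libraries.

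*Nep6* had control libraries at 1011, 1016 and 1016 normalized read counts and overexpression libraries at 990.0, 711 and 832. The spread lay almost wholly in the overexpressing flies (SD 140.0 against 3.02), in which replicate 1 was close to control. The log2 fold change was −0.28 (standard error 0.095). Without overexpression replicate 1, *Nep6*, *Nepl10* and *Nepl14* were called lower, at −0.40, −0.32 and −0.31.

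*Nepl19* held 265, 296 and 320.4 normalized read counts in control flies and 244, 208 and 245 in overexpressing flies. Its log2 fold change of −0.33 was close to those of *Nepl11* and *Nepl13*, which were called, but its standard error was larger, at 0.106. *Nep3*, of the neprilysins tied to memory, held 496, 506 and 470.2 against 459, 453 and 456, a log2 fold change of −0.11 (standard error 0.069).

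*Nep5* held 357, 275 and 338 normalized read counts in control flies and 392, 372 and 413 in overexpressing flies. Its log2 fold change was 0.29 (standard error 0.102), it was not called, and its closest libraries were 357 and 372. Its exons overlap those of the neuropeptide receptor gene *RYa-R* on the other strand, so that reads there could belong to either. The overlap is 28 of the 3946 bases of *Nep5*.

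*Nep4*, which in larvae cleaves peptides that govern feeding and insulin signalling, was the neprilysin with the highest level. It held 1849.8, 1652 and 1669 normalized read counts in control flies and 1835, 1779.6 and 1916 in overexpressing flies, and the groups overlapped. The log2 fold change was 0.10 (standard error 0.058).

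The other members overlapped between the groups as well. *Nepl4* had the highest fold change of the 23 tested members, at 0.47 (standard error 0.153), with 106, 132 and 107 normalized read counts against 169, 131 and 181. It was not called in the full set and was called higher without control replicate 2 (0.57) and without overexpression replicate 2 (0.61), the libraries in which the groups met. *Nep7* stood at 879.6 ± 65.8 and 997 ± 78.7 normalized read counts, a log2 fold change of 0.18 (standard error 0.074). *Nep2*, a tachykinin-cleaving enzyme of the renal tubules and testis, stood at 905 ± 48.8 and 845 ± 52.5, a log2 fold change of −0.10 (standard error 0.067).

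In *Nepl5*, *Nepl16*, *Nepl12*, *Nepl17*, *Nepl3* and *Nep1* the log2 fold changes lay between −0.01 (*Nepl17* and *Nepl12*) and 0.15 (*Nepl3*, standard error 0.287), and none of these 6 was called. With each library scaled to its total, *Nepl12* and *Nepl17* lay at 0.033 and 0.028, on the other side of 0. The exons of *Nep1* overlap those of *Mipp2* on the other strand, on 267 of the 4793 bases of *Nep1*.

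Over the 23 tested members the log2 fold change lay below 0 in 15 and above 0 in 8, with a median of −0.11. Over all genes tested it lay below 0 in 48.7%, with a median of 0.01 and a span from −0.42 to 0.45 between the 5th and the 95th percentile. *Nepl9*, *Nepl21* and *Nepl18* lay below that span and *Nepl4* above it. Summed over all 26 members, the normalized read counts were 19316 ± 371 in control flies (19096 to 19744) and 17140 ± 695 in overexpressing flies (16634 to 17932), which did not overlap. Members of high level weigh most in this sum, such as *Nepl11* (4239.8 ± 138 and 3359 ± 321) and *Nepl21* (1535 ± 117 and 1124 ± 30.9). The sum therefore does not show a fall in each member, and 8 of the 23 tested lay above 0.

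**Figure D3:**
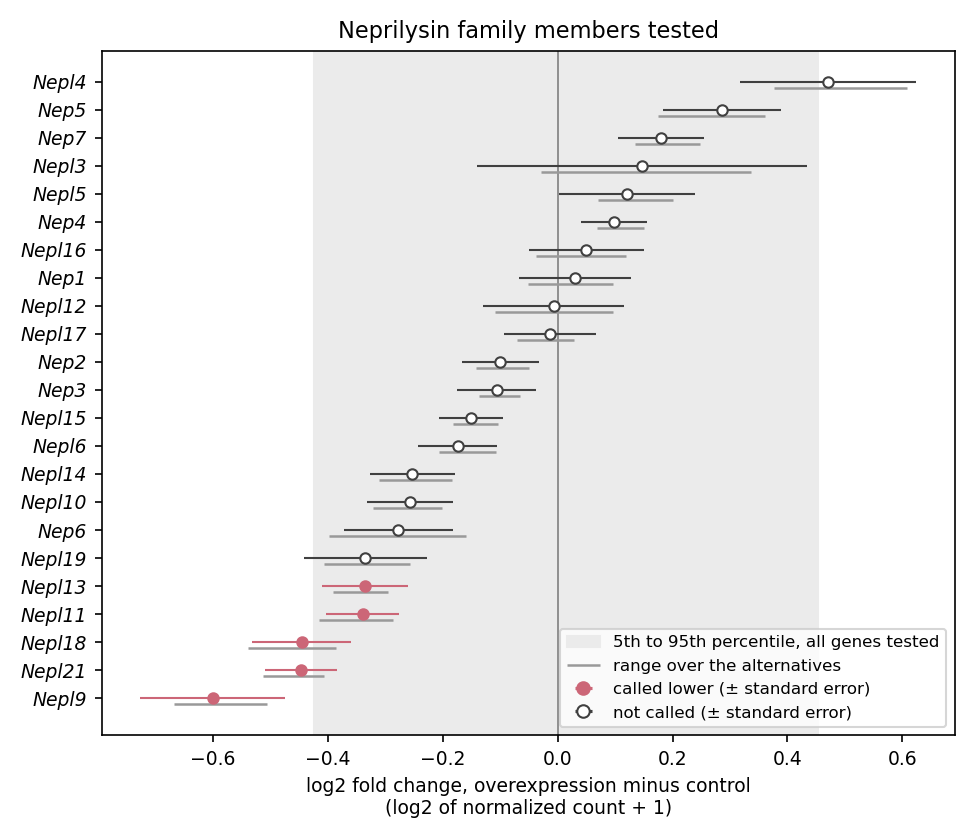
Log2 fold change of the 23 tested members, overexpression minus control, with bars of ± 1 standard error; filled points are called lower, grey lines give the range over the alternative analyses and the grey band the 5th to 95th percentile of all genes tested. Values run from −0.60 for *Nepl9* to 0.47 for *Nepl4*.

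What the members have in common beyond their names was taken from the reference annotation. Counts are given by class, beside 5.24% called lower and 3.18% called higher over all genes tested. With all 6 libraries none of the 7 neprilysins was called by limma, edgeR or DESeq2 (3 had an unadjusted p under 0.05 in limma). At those shares few or no calls are expected among 7 genes. The median log2 fold change of the neprilysins was 0.03, with 3 of 7 below 0. Of the 16 neprilysin-like genes tested, 5 were called lower, with a median of −0.21 and 12 below 0. The count of 0 among the neprilysins was not stable, since *Nep6* was called lower without overexpression replicate 1. The difference between these classes was not tested, and since the family was selected on this contrast nothing is read from it. The coding sequence of the longest transcript ran from 655 to 1040 codons in the neprilysins and from 592 to 752 in the neprilysin-like genes.

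Many members are compact genes. In 16 of the 26 the longest coding transcript is a single exon, whereas the median over 13986 protein-coding genes of the annotation was 3 exons. Over all genes tested 5.24% were called lower, 3.18% were called higher and 14.4% lay below control in every library. Of the 14 single-exon members tested, 4 were called lower (*Nepl9*, *Nepl21*, *Nepl18* and *Nepl13*) and 10 lay below control in every library, with a median log2 fold change of −0.26. Their values still ran from −0.60 to 0.47. Of the 3 members with 2 exons that were tested, *Nepl11* was called and *Nep7* and *Nepl12* were not. None of the 6 members with at least 4 exons (*Nep1* to *Nep5* and *Nepl16*) was called by limma, edgeR or DESeq2 (1 had an unadjusted p under 0.05). Their log2 fold changes ran from −0.11 to 0.29. At the shares over all genes few or no calls are expected among 6 genes, and nothing is read from the counts by exon number. Exon number and class go together in this family only in part. *Nep6* is a neprilysin with 1 exon (−0.28) and *Nep7* one with 2 exons (0.18), while *Nepl16* is a neprilysin-like gene with 11 exons (0.05). The parts of exon number and class were not tested.

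The members lie on chromosome arms 3R (15 genes), 2L (7 genes), X (3 genes) and 2R (1 gene), and several sit side by side. Positions are those of the dm6 assembly and were the same in the deposited table for all 26. *Nepl17* to *Nepl21* occupy 13.1 kb of 3R, from 28872905 to 28886015, with gaps of 589, 218, 669 and 747 bases and no other gene between them. *Nepl18* and *Nepl21* were called lower there, at −0.45 each, and *Nepl19* lay at −0.33. *Nepl17*, the first gene of the row, lay at −0.01 and *Nepl20* was not tested.

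A further row on 3R, from 22758810 to 22766172, holds *Nepl13*, *Nepl14* and *Nepl15*, with gaps of 363 and 248 bases. All 3 lie on the minus strand and all 3 lay below control in every library, at −0.33, −0.25 and −0.15. On 2L, *Nepl4*, *Nepl5* and *Nepl6* lie within 17.6 kb (6367882 to 6385512), and here the log2 fold changes pointed both ways, at 0.47, 0.12 and −0.17. *Nepl5* and *Nepl6* are 15 bases apart on opposite strands. *Nepl9* (2L, 16835136 to 16837258) and *Nepl11* (3R, 4292274 to 4294840) have no other member beside them.

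Genes around the rows were set beside them. Over all genes tested 5.24% were called lower and 3.18% higher. Of the 10 tested genes that flank *Nepl17* to *Nepl21*, none was called lower in limma (1 had an unadjusted p under 0.05) and 1 was called higher, with a median log2 fold change of −0.05. Around *Nepl13* to *Nepl15* none of 10 was called lower (0 with an unadjusted p under 0.05) and 1 was called higher, with a median of 0.05. Around *Nepl4* to *Nepl6* 1 of 10 was called lower, with a median of −0.03. At the shares over all genes, any 10 genes would often give counts of 0 or 1. Nothing is therefore read from the flanking genes about the rows.

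**Figure D4:**
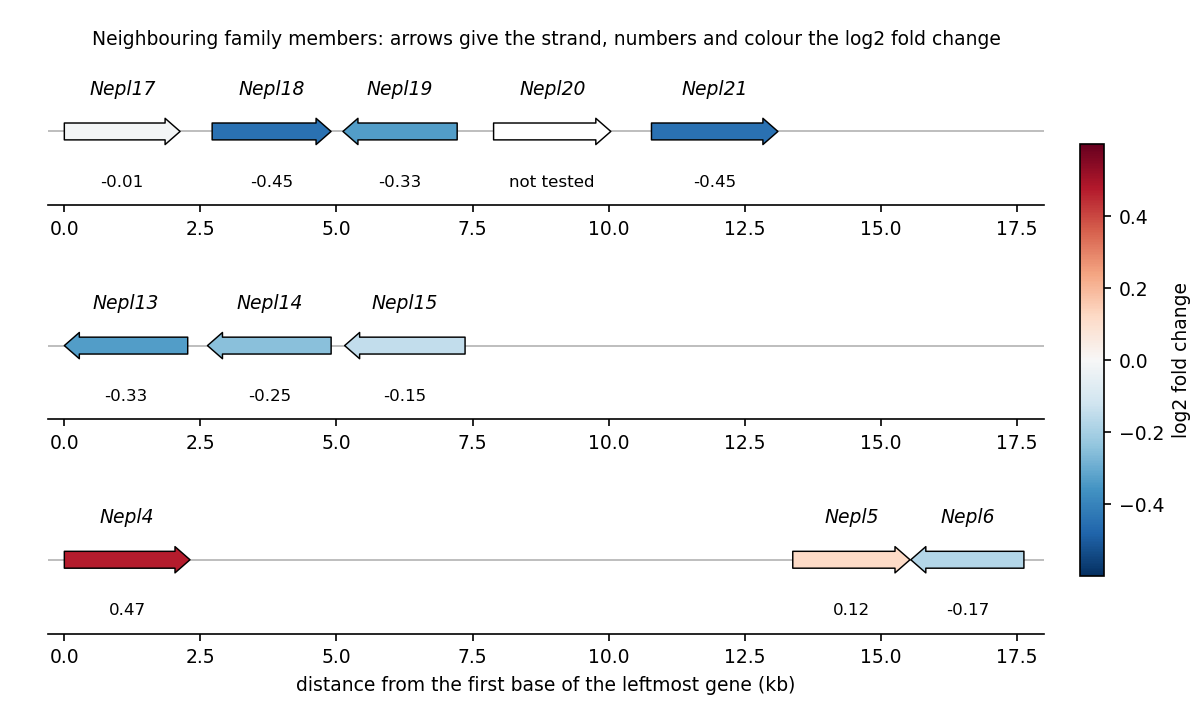
Map to scale of the 3 groups of neighbouring members, in kb from the leftmost gene of each; arrows give the strand, and colours and printed numbers give the log2 fold change. *Nepl18* and *Nepl21* share −0.45 in a row in which *Nepl17* lies at −0.01, and *Nepl4* and *Nepl6* point in opposite directions.

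Other peptidases, peptide genes and tissue markers were taken as lists and described by their counts. Over all genes tested 5.24% were called lower and 3.18% higher, and no list was tested as a set. Without the intensity trend of limma, 1 nephrocyte and heart marker was called lower and no other gene of the lists was called. Of 12 further genes listed as peptide-degrading peptidases, such as angiotensin-converting enzyme homologues and dipeptidyl peptidases, 2 were called lower and none higher in limma (0 with an unadjusted p under 0.05). Of the list 9 lay below 0, with a median of −0.09. Whether each product is an active peptidase was not tested. *Ance-4* fell from 819 ± 49.8 to 597 ± 120.1 normalized read counts (log2 fold change −0.47, standard error 0.113) and *Ance-5* from 579 ± 46.8 to 441 ± 36.0 (−0.39, standard error 0.085). Without control replicate 1 or 3 neither was called (0 of the list), and without overexpression replicate 2 or 3 only *Ance-5* was. The 8 sperm leucyl aminopeptidases, a group of peptidases of the testis, held no called gene in limma (0 with an unadjusted p under 0.05 either way) and had a median of −0.01.

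Neprilysins act on small peptides, and of 37 tested neuropeptide and peptide hormone genes 4 were called lower and none higher in limma (2 with an unadjusted p under 0.05), with 19 below 0 and a median of −0.0026. *Tk*, the precursor of the tachykinins, fell from 919 ± 161 to 590.3 ± 45.4 normalized read counts (log2 fold change −0.63, standard error 0.106). *Nplp2* fell from 23608 ± 1635 to 15779 ± 2935 (−0.59, standard error 0.103). *Ilp6*, an insulin-like peptide made in the fat body, fell from 476 ± 38.2 to 329.9 ± 52.4 (−0.54, standard error 0.112), and *CCHa2*, a nutrient-responsive peptide, from 2791 ± 257 to 2101 ± 231 (−0.41, standard error 0.081). *Ilp6* was not called without control replicate 1. Whether the peptide genes and the peptidase genes moved together for a shared reason was not tested.

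In RNA of whole flies, fewer cells of a type and less RNA per cell cannot be told apart. Markers of several tissues were called lower, as were 5 of the 23 tested members, while 8 of the 23 lay above 0. Of 10 fat body markers 6 were called lower and 1 higher, with 8 below 0, a median of −0.41 and a summed level of 800 to 931 FPKM in control and 670 to 724 in overexpressing libraries. *Fbp2*, *Fbp1*, *Lsp2* and *Lsd-1* had the lowest fold changes of that list (−2.36, −1.69, −1.59 and −0.75), and *Miox* rose by 0.36. The spread between libraries was large in *Fbp2* (792 ± 431 normalized read counts in control and 170 ± 136 in overexpressing flies). It was also large in *Fbp1* (1053 ± 576 and 354 ± 268) and *Lsp2* (193 ± 68.5 and 66.4 ± 33.6). Without control replicate 1 the count called lower was 3, and *Lsp2* and *Fbp1* were not called. *Fbp1* was also not called without control replicate 2 or overexpression replicate 1 or 3, nor by DESeq2. Its groups overlapped, at 605 normalized read counts in control replicate 3 and 662 in overexpression replicate 2. *apolpp*, also counted among the 6, was called in only 6 of 19 alternatives and not by edgeR or DESeq2. Of 13 muscle markers 5 were called lower and none higher in limma (0 with an unadjusted p under 0.05), with 12 below 0, a median of −0.23 and sums of 4463 to 4720 and 3866 to 4434 FPKM. The count of muscle markers called lower fell to 2 when control replicate 1 was left out and to 3 when control replicate 3 was, and it reached 8 without overexpression replicate 3.

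Of 14 accessory gland markers 5 were called lower and none higher in limma (0 with an unadjusted p under 0.05), with 12 below 0, a median of −0.18 and sums of 5690 to 6216 and 5041 to 5410 FPKM. The lowest of the 5 called were *Acp24A4*, *Mst57Db*, *Acp62F* and *Acp76A*, at −0.58, −0.44, −0.35 and −0.26. *Mst57Db* was not called without overexpression replicate 2 or 3, nor *Acp76A* without control replicate 1. The part of the fat body, the muscles and the accessory glands in the levels of the 5 family members called lower was not tested. Of 25 testis markers 1 was called lower, *Mst57Da* at −0.29, an accessory gland transcript by what is known of it, and the median was −0.03. It was not called without control replicate 1. Testis sums, which include *Mst57Da*, were 7799 to 8670 and 7350 to 7710 FPKM. *Mst57Da* fell from 23050 ± 1478 to 18892 ± 717 normalized read counts, and sums without it were not computed.

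Of 11 neuron markers none was called in limma (5 with an unadjusted p under 0.05, all lower), 9 lay below 0 and the median was −0.13, with sums of 105 to 115 and 102 to 111 FPKM. Without control replicate 3, 1 neuron marker was called lower. Of 8 glia markers 1 was called lower, *Eaat1* at −0.26, and the median was −0.04. *Eaat1* was not called without control replicate 1, control replicate 3 or overexpression replicate 2. Of 5 tested nephrocyte and heart markers none was called in limma with the intensity trend (0 with an unadjusted p under 0.05), and the median was −0.03. Without the trend 1 of them was called lower.

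**Figure D5:**
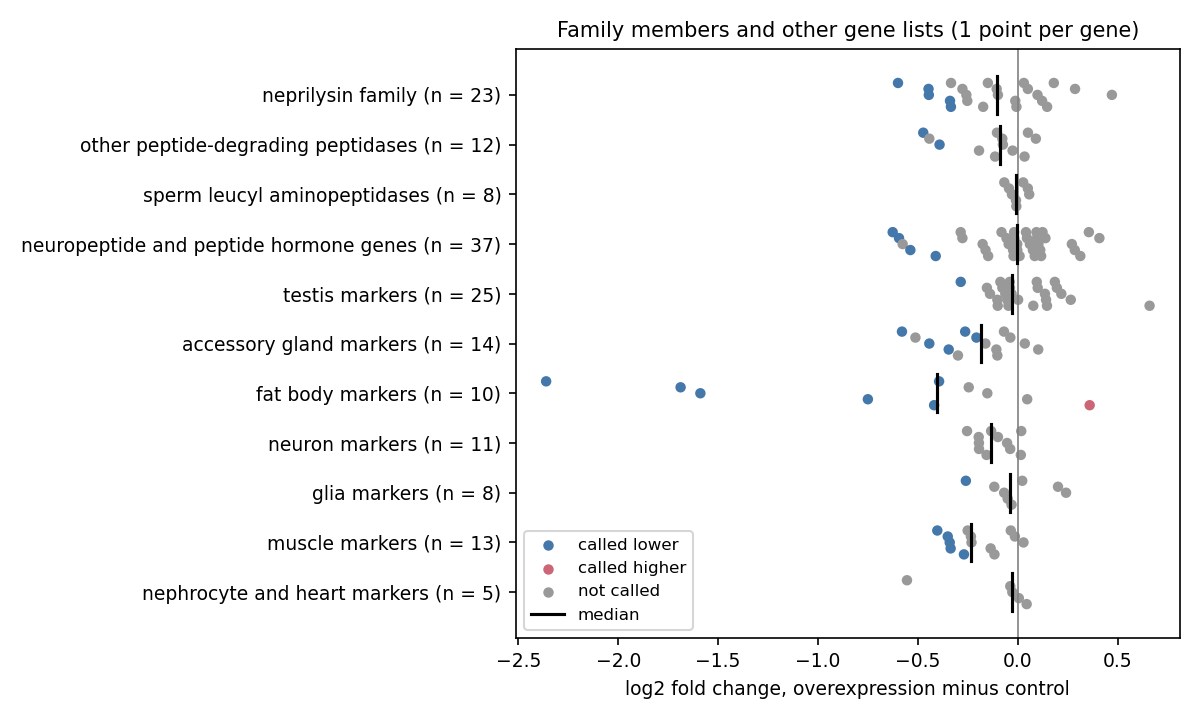
Log2 fold change, overexpression minus control, of the 23 tested family members and of the genes of 10 other lists, 1 point per gene, with blue for called lower, red for called higher and a black line at each median. The median of the family lies at −0.11, that of the fat body markers at −0.41 and that of the sperm leucyl aminopeptidases at −0.01.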

How the data were processed

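RNA-seq of 6 libraries was analysed, 3 per group, grouped by the strain label. Per the labels, the authors aligned paired-end reads with HISAT2 2.0.5 to dm6 and counted them per gene with featureCounts 1.5.0-p3. The sources used here do not state the annotation release, nor how strand and reads with several matches were handled. The values deposited by the authors are normalized counts, a signal equal to each count divided by a size factor. Columns deposited by the authors with their own comparison, log2 fold changes and p-values, were not used. Dividing by the value of 1 read returned whole reads for 100% of values (tolerance 0.01), and depth and FPKM came from these reads and the deposited gene lengths.

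Members were matched by gene ID to names of the Ensembl release 115 annotation (26 genes, 5 of them under that name in the table). The members and lists were chosen with earlier results of these data known. The test was limma 3.58.1 with an intensity trend on log2(normalized count + 1), a fold change that understates changes of low genes, for genes whose mean level reached 0.5 FPKM, with Benjamini-Hochberg adjustment. Alternatives were other pseudocounts, filters and scalings, array weights, no trend, a replicate block, each library left out, limma voom, edgeR 4.0.16 and DESeq2 1.42.0 on the recovered reads. Each list was described by its counts and median, with no set test. Named with each library are members called or not overlapping between groups and the 5 of highest level. *Nepl4* is outside that rule and was added after its values were seen. From the lists, at most 4 called genes per direction are named, with *apolpp* added, and *Mst57Da* and *Eaat1* are the only ones called in theirs. The methods of the study state independent biological replicates for its experiments in general. The labels do not say what separates the libraries, and where they share flies the spread would be technical. Of the listed genes 5 had no match in the table. Planned protein features were not used here.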

Additional observations from a re-analysis of the deposited data

How the results depend on the processing

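Over 19 alternatives, 406 of 433 values of members kept direction and side of the threshold, 8 lost a call, 7 gained one and 12 changed sign. Without the intensity trend no member was called lower (0) and 99 and 94 of all genes were called lower and higher. This was the only alternative in which *Nepl11*, *Nepl18* and *Nepl21* were not called, and the cause was not tested. Scaling to the library total called 632 genes higher, beside 420, moved the median of all genes to 0.05 and put *Nepl12* and *Nepl17* at 0.033 and 0.028. edgeR, DESeq2 and voom on the recovered reads called the same 5 members. They called 674, 635 and 698 genes lower and 430, 368 and 418 higher. With single libraries left out, members called lower ranged from 3 to 8 and members called higher from 0 to 1, and all genes from 328 to 618 lower and from 201 to 393 higher. Log2 fold changes that changed sign then ranged from −0.052 to 0.096 for *Nep1*, −0.11 to 0.097 for *Nepl12*, −0.037 to 0.12 for *Nepl16*, −0.071 to 0.021 for *Nepl17* and −0.029 to 0.34 for *Nepl3*. Control and overexpression libraries of the same number did not deviate together (correlations −0.034, 0.052 and −0.036), so the numbers were not treated as pairs. A replicate block called 7 members lower, adding *Nep6* and *Nepl10*, and 846 genes lower and 517 higher. Depth limits *Nepl3*, *Nepl7*, *Nepl8* and *Nepl20*, which had few reads.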
